A study of Mus musculus with 4 samples.

Results

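The NF-kB family was described through 10 genes: the 5 subunit genes Nfkb1, Nfkb2, Rel, Rela and Relb, the 3 classical inhibitor (IkB) genes Nfkbia, Nfkbib and Nfkbie, the ubiquitin-editing inhibitor gene Tnfaip3, and Bcl3, an atypical member of the IkB family. They were taken by gene symbol from the 16613 symbols of the count files, and all 10 were found and passed the filter on low counts. RNA-seq had been run on GFP-positive bone marrow cells of recipient mice that carried donor B220+ marrow cells transduced with N-myc, which the labels call N-myc-induced B-ALL cells (B-cell acute lymphoblastic leukaemia) of strain C57BL/6. The donor cells were Anp32b-/- (knockout, 2 libraries) or Anp32b+/+ (wild type, 2 libraries), so N-myc and the transplantation were common to both groups, and Anp32b encodes an acidic nuclear protein. The age and sex of the mice, and whether each library came from a separate animal, are not given in the labels. The p-values therefore speak of the variation among these libraries alone, and that variation may be technical. The comparison asks how the NF-kB genes of N-myc leukaemia differ when the leukaemia arises from cells without Anp32b.

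NF-kB is a dimer of Rel-domain proteins that is held inactive in the cytoplasm by IkB proteins. In the canonical route, IkB kinase (IKK) marks IkB for degradation, which frees dimers of RelA or c-Rel with the product of Nfkb1. In the non-canonical route, the kinase NIK and IKK alpha drive processing of the Nfkb2 product, which then acts with RelB downstream of the BAFF and lymphotoxin beta receptors. Active NF-kB induces several of its own genes, among them Nfkbia, Nfkbie, Tnfaip3, Nfkb1, Nfkb2, Rel, Relb and Bcl3, which closes a negative feedback loop or shifts the dimer pool. In B cells the family serves survival, maturation and the response to antigen.

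The libraries held 19581575 and 19605800 estimated reads for knockout and 19692505 and 19758671 for wild type. Anp32b itself was at 74.3 and 70.6 CPM (counts relative to library size, scaled by the TMM factors of edgeR) in knockout, against 773 and 853 CPM in wild type (log2 fold change -3.49, SE 0.07). B cell genes were abundant in all libraries, with Cd79a at 1870 and 1928 CPM in knockout and at 1912 and 1870 CPM in wild type. Of 15 tested genes of B cell precursors, 8 were lower and 0 higher in knockout, among the lower the recombinase genes Rag1 and Rag2. These 15 genes summed to 7051 and 7153 CPM in knockout and to 7815 and 7782 CPM in wild type. Markers of some other cells also moved. All 15 of 15 neutrophil markers were lower in knockout, with a summed level of 126 to 128 CPM in knockout and 637 to 648 CPM in wild type. Of 13 tested monocyte and macrophage markers, 4 were lower (sum 112 to 114 CPM in knockout, 171 to 175 CPM in wild type), and so were 2 of 4 tested natural killer cell markers (1.34 to 2.27 CPM in knockout, 6.01 to 7.45 CPM in wild type). T cell markers summed to 89.1 to 92.8 CPM in knockout and 51.5 to 56.1 CPM in wild type, with 2 higher and 1 lower of 6 tested. Their median log2 fold change was -0.20, opposite in direction to the sum. Plasma cell markers summed to 896 to 913 CPM in knockout and 1020 to 1021 CPM in wild type (4 lower and 1 higher of 6). Plasmacytoid dendritic cell markers summed to 224 to 229 CPM in knockout and 202 to 204 CPM in wild type (2 lower and 1 higher of 6). The median log2 fold change of the plasmacytoid dendritic cell markers was -0.29, again opposite in direction to the sum. Of 9 tested erythroid markers, 0 were called (sum 241 to 246 CPM in knockout, 214 to 234 CPM in wild type). The 1 tested megakaryocyte marker and the 1 tested stromal marker were not called either. Beside these counts of called markers, 12.6% of all tested genes were called lower and 10.9% higher in knockout. No marker of these lists was at 0 in all libraries. The part of these markers in the NF-kB results was not tested, and in bulk RNA fewer cells of a type and less RNA per cell cannot be told apart. Y-linked genes, which male cells alone carry, were lower in knockout in 4 of 4 cases, with a sum of 41.7 to 42.5 CPM in knockout and 156 to 172 CPM in wild type. The content of male cells or their RNA thus differed with the genotype, and the effects of the sex of the mice and of Anp32b on the NF-kB genes cannot be told apart.

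By edgeR's quasi-likelihood test, at an adjusted p under 0.05 over 12123 tested genes, 6 of the 10 members fell in knockout (Nfkb2, Relb, Nfkbia, Nfkbie, Tnfaip3 and Bcl3), where 12.6% of all tested genes were called lower. Nfkbib was called higher, just inside the threshold, where 10.9% of all tested genes were called higher. Nfkb1, Rel and Rela were not called. The members' median log2 fold change was -0.36, and that of all tested genes was 0.0021. The members and the lists below were chosen with earlier results of these data known, so such counts and medians are a description. In 8 members both knockout libraries lay below both wild-type libraries, a pattern of 30.5% of all tested genes, and in Rela and Nfkbib they lay above, a pattern of 30.1%. Without either knockout library in turn, and also with DESeq2, 4 members were called lower and 0 higher. Relb, Nfkbie and Nfkbib were the members that lost their calls.

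**Figure D1:**
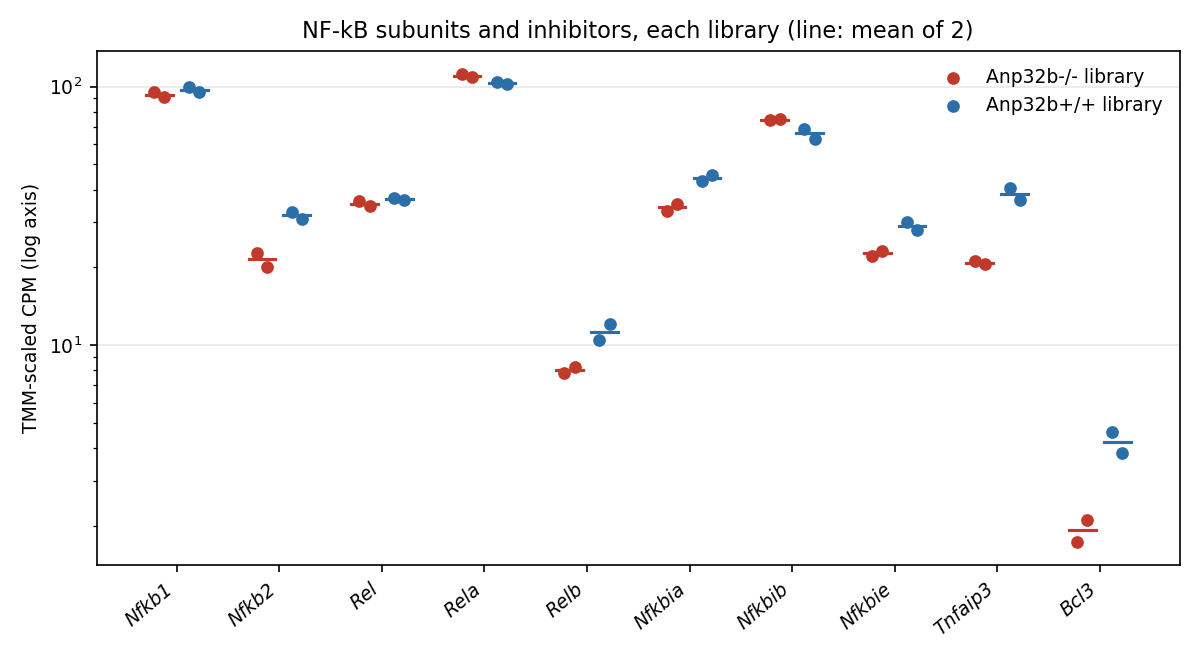
Level of each member in each library, in TMM-scaled CPM on a log axis, with Anp32b-/- libraries in red to the left of Anp32b+/+ libraries in blue and the mean of 2 libraries as a line. Tnfaip3 sits at 20.5 and 21.2 CPM in knockout and at 36.4 and 40.6 CPM in wild type, while the libraries of Rel lie between 34.5 and 37.1 CPM in both genotypes.

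**Figure D2:**
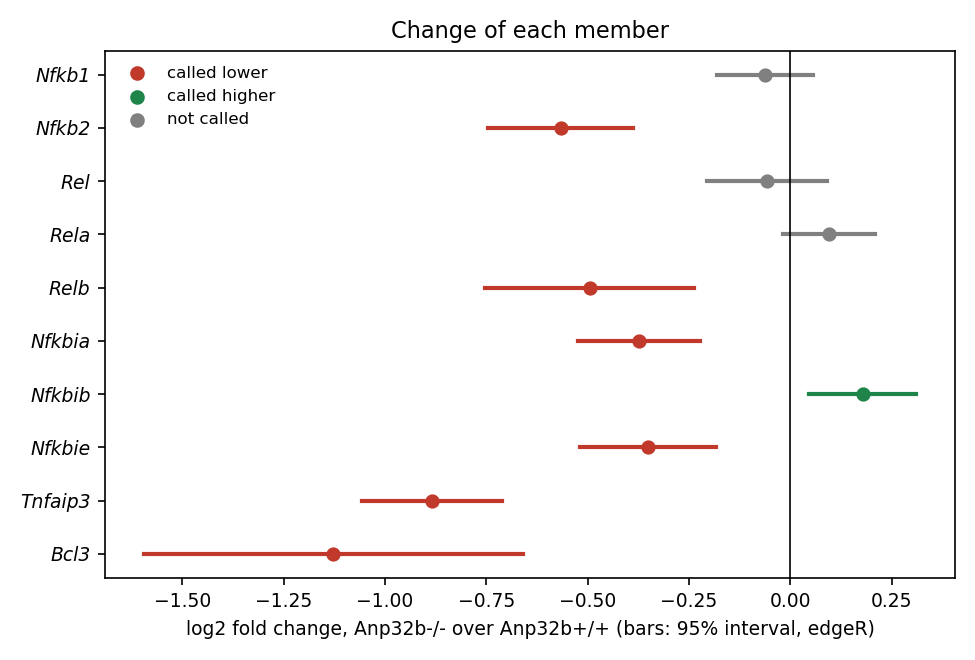
Log2 fold change of each member, knockout over wild type, with its 95% interval from edgeR. The intervals of Nfkb1, Rel and Rela include 0, that of Nfkbib lies above 0 and those of the other 6 members lie below it.

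Upstream sequence was at hand for 8 members (RefSeq, GRCm38.p6, the 250 bases before an annotated start site, written in the direction of the gene). The kappaB motif, the consensus site that NF-kB dimers bind, was searched on both strands with overlapping matches allowed. It occurred in 5 of these 8 genes (Nfkb2, Nfkbia, Nfkbie, Tnfaip3 and Rel). A match occurred in 5.27% of the 9799 tested genes with such a window, in 4.46% of all 27025 genes with one and in 3.9% of 32851 windows. All 5 genes are among those named above as induced by NF-kB, so their share is no independent evidence. Rela, Nfkbib and Bcl3 had no match in this window. Of the 5 genes with a match, 4 fell in knockout and Rel was not called. Of the 3 without, Bcl3 had the largest fall of the members, Nfkbib was called higher and Rela was not called. A window of each of the 8 genes is shown so that those with and without a match can be compared, for Nfkb2 and Tnfaip3 the window with the most matches. Capitals mark the matches.
Nfkb2, chr19:46304487-46304736, plus strand: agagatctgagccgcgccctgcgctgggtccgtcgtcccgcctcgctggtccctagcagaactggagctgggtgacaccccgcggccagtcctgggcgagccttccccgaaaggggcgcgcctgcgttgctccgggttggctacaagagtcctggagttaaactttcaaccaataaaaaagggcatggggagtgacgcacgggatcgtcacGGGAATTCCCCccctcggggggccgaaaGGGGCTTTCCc
Nfkbia, chr12:55492648-55492897, minus strand: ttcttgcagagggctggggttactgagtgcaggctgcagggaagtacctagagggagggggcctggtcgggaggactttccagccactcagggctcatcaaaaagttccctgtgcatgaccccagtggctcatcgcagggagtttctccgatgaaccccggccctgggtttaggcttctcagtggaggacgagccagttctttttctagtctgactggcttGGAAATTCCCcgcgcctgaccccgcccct
Nfkbie, chr17:45555450-45555699, plus strand: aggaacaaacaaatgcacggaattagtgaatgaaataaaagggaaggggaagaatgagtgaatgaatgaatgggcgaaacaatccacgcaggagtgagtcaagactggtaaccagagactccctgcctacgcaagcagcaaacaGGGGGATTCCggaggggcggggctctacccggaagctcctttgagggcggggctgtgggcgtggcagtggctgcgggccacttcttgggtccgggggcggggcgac
Tnfaip3, chr10:19015411-19015660, minus strand: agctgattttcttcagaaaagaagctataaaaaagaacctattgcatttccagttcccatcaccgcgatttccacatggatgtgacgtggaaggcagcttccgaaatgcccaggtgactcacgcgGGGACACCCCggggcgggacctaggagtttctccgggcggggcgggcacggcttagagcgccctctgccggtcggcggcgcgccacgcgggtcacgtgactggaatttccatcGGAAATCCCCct
Rel, chr11:23770970-23771219, minus strand: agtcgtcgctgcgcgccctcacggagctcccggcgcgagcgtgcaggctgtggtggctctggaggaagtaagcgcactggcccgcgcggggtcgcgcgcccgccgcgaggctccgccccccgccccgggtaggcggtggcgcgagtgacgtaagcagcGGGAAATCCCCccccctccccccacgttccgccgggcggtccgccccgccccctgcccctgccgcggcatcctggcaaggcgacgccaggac
Rela, chr19:5637291-5637540, plus strand: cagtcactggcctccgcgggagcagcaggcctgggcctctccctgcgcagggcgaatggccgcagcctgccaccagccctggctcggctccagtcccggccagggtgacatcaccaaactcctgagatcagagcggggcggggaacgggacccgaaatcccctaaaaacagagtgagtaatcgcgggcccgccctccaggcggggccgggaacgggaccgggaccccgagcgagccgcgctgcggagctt
Nfkbib, chr7:28766645-28766894, minus strand: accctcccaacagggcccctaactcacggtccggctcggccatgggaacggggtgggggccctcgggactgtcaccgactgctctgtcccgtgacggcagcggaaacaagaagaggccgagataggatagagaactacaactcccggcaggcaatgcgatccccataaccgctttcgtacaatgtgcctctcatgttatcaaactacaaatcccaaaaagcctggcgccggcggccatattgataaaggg
Bcl3, chr7:19822756-19823005, minus strand: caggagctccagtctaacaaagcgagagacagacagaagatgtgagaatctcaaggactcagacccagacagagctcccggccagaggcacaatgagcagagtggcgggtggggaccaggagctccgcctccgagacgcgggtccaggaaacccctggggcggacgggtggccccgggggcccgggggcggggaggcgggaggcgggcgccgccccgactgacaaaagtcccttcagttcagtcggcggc
In Nfkbia the match began 29 bases before the start site, and in Tnfaip3 the matches began 125 and 12 bases before it, while the window of another Tnfaip3 start site (chr10:19011964-19012213) held none. Nfkb2 had 3 matches in the window shown, of which 2 overlap, and 1 in each of 2 windows of further start sites. A match is a description of the letters and does not show binding. Across all tested genes with such a window, 97 of 516 with a match (18.8%) and 1127 of 9283 without (12.1%) were called lower in knockout, and 11.0% with and 10.9% without a match were called higher. These shares are given without a test.

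Among the subunits, Rela, Nfkb1 and Rel did not pass the test, and their log2 fold changes lay between -0.06 and 0.10. Rela, which encodes the main transactivating subunit p65 (chr19:5637483-5648130, plus strand, GRCm38), was at 112 and 108 CPM in knockout and at 104 and 102 CPM in wild type. Both knockout values lay above both wild-type values, but the log2 fold change of 0.10 (SE 0.05, 95% interval -0.02 to 0.21, edgeR adjusted p = 0.223) did not pass. Nfkb1, which encodes the precursor of p50 (chr3:135584655-135691547, minus strand), was at 95.02 and 91.25 CPM in knockout and at 99.2 and 95.3 CPM in wild type (log2 fold change -0.06, SE 0.06, interval -0.18 to 0.06, adjusted p = 0.463). Rel, which encodes c-Rel, a subunit used mainly in lymphoid cells (chr11:23736847-23770970, minus strand), was at 36.1 and 34.5 CPM in knockout and at 37.1 and 36.3 CPM in wild type (log2 fold change -0.06, SE 0.07, interval -0.21 to 0.09, adjusted p = 0.603). The 95% intervals of these 3 genes reached no further than 0.21 in size on the log2 scale. They cover the variation among these libraries alone, which may be technical, so they set no bound on the effect of Anp32b.

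Nfkb2 and Relb, whose products form the non-canonical dimer, fell together. Nfkb2 (chr19:46304320-46312385, plus strand) was at 22.8 and 20.2 CPM in knockout and at 32.8 and 30.7 CPM in wild type. The groups did not overlap. Knockout over wild type was -0.57 on the log2 scale, with an SE of 0.08, an interval of -0.75 to -0.39 and an adjusted p of 0.000174 by edgeR, so the level was 1.48-fold higher in wild type. Relb (chr7:19606217-19629438, minus strand) was at 7.79 and 8.27 CPM in knockout and at 10.5 and 12.1 CPM in wild type, or 152 and 160 reads against 210 and 240 reads. Its log2 fold change was -0.49 (SE 0.12, interval -0.75 to -0.24, adjusted p = 0.00809). The call of Relb was lost without knockout replicate 1 (adjusted p = 0.0814), without knockout replicate 2 (0.0879), with DESeq2 (0.094) and with no filter on low counts (0.0685), and its log2 fold change ran from -0.59 to -0.40 over all alternatives. Nfkb2 was called in all 11 alternatives (adjusted p from 1.79e-07 to 0.0338). Exons of Nfkb2 overlap those of Psd on the opposite strand, and the strand setting of the counting is not stated. They also overlap those of AC114539.1 on that strand, a gene not analysed here. Psd was called lower too, with 2.04 and 2.24 CPM in knockout and 3.59 and 3.10 CPM in wild type (log2 fold change -0.65, SE 0.22, adjusted p = 0.0477), and reads from where these genes overlap cannot be told apart.

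The 3 classical IkB genes did not move together. Nfkbia, which encodes IkB alpha, the fast inhibitor that NF-kB re-induces after each activation (chr12:55489410-55492647, minus strand), was at 33.1 and 35.1 CPM in knockout and at 43.0 and 45.4 CPM in wild type. On the log2 scale it fell by 0.37 (SE 0.07, 95% interval -0.52 to -0.22, adjusted p = 0.00131 by edgeR). Nfkbie, which encodes IkB epsilon, a slower inducible inhibitor that acts on c-Rel dimers in B cells (chr17:45555703-45563169, plus strand), was at 22.2 and 23.1 CPM in knockout and at 29.9 and 27.9 CPM in wild type (log2 fold change -0.35, SE 0.08, interval -0.52 to -0.18, adjusted p = 0.00447). For both genes the knockout libraries lay below the wild-type libraries, a pattern of 30.5% of all tested genes. Nfkbib, which encodes IkB beta, an inhibitor that NF-kB does not rapidly re-induce (chr7:28758251-28767512, minus strand), was at 74.3 and 74.8 CPM in knockout and at 68.8 and 62.9 CPM in wild type (log2 fold change 0.18, SE 0.06, interval 0.05 to 0.31, adjusted p = 0.0498). The rise of Nfkbib was called in 4 of 11 alternatives and lost in the other 7, which include leaving out knockout replicate 1 (adjusted p = 0.232), knockout replicate 2 (0.332) or wild-type replicate 2 (0.182). Exons of Nfkbib overlap those of Sirt2 and Ccer2 on the opposite strand. Ccer2 was below the filter. Sirt2 rose too (54.5 and 50.8 CPM in knockout, 42.8 and 40.8 CPM in wild type, log2 fold change 0.33, SE 0.07). Without a stated strand setting the reads of these genes cannot be told apart where they overlap. The call of Nfkbie was lost without knockout replicate 1 (adjusted p = 0.0761), without knockout replicate 2 (0.0783), with DESeq2 (0.0511) and with no filter (0.0514). Nfkbia stayed called in all 11 alternatives (adjusted p from 3.63e-05 to 0.047).

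Tnfaip3 and Bcl3 had the largest falls of the 10 members. Tnfaip3 encodes A20, which edits ubiquitin chains on the signalling complexes above IKK and thereby ends NF-kB activation (chr10:19000910-19015657, minus strand). It was at 21.2 and 20.5 CPM in knockout and at 40.6 and 36.4 CPM in wild type. On the log2 scale it fell by 0.88 (SE 0.08, 95% interval -1.06 to -0.71, adjusted p = 1.64e-06 by edgeR), which placed it at rank 218 of the 12123 tested genes by p. It was called in all 11 alternatives, with a log2 fold change from -0.96 to -0.80. Bcl3, whose product binds p50 and p52 dimers in the nucleus (chr7:19808462-19822770, minus strand), was the least abundant member, with 34 and 41 reads in knockout and 92 and 76 reads in wild type. This equalled 1.74 and 2.12 CPM in knockout and 4.62 and 3.83 CPM in wild type (log2 fold change -1.13, SE 0.22, interval -1.60 to -0.66, adjusted p = 0.00168). Its interval was the widest of the members, and it was called in each of the 10 alternatives that tested it. Exons of Bcl3 overlap those of Gm16175 on the opposite strand, a gene not analysed here, and reads from the overlap cannot be told apart either. Neutrophil markers, which sum to 126 to 128 CPM in knockout and 637 to 648 CPM in wild type, were lower in the same libraries, and their part in these falls was not tested.

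Per kilobase of transcript (each gene's length being the median of its coding transcripts in GENCODE), Rela was the most abundant member in both genotypes, at 71.5 ± 1.45 CPM per kilobase in knockout and 66.9 ± 0.637 in wild type (SD, n = 2 each). Nfkbib followed with 60.0 ± 0.309 in knockout and 53.0 ± 3.35 in wild type, then Nfkb1 with 31.0 ± 0.887 in knockout and 32.3 ± 0.924 in wild type, and Nfkbia with 21.6 ± 0.919 in knockout and 28.0 ± 1.08 in wild type. Below these came Nfkbie (9.46 ± 0.267 in knockout, 12.1 ± 0.599 in wild type), Tnfaip3 (8.65 ± 0.19 in knockout, 16.0 ± 1.25 in wild type), Nfkb2 (6.85 ± 0.596 in knockout, 10.1 ± 0.471 in wild type), Rel (4.72 ± 0.151 in knockout, 4.92 ± 0.08 in wild type) and Relb (3.65 ± 0.156 in knockout, 5.13 ± 0.5 in wild type). Bcl3 came last, with 1.48 ± 0.202 CPM per kilobase in knockout and 3.24 ± 0.426 in wild type. Tnfaip3 ranked below Nfkbie in knockout and above it in wild type. Rel and Relb were neighbours whose wild-type libraries overlapped (4.97 and 4.86 for Rel, 4.78 and 5.49 for Relb), so their order there is not set. The order depends on the length used: with the longest coding transcript, Tnfaip3 took rank 8 in knockout, level with Rel (4.72 CPM per kilobase each), Nfkbia ranked above Nfkb1 in wild type (28.0 against 23.6), and Tnfaip3 was below Nfkbie in wild type too (8.71 against 11.9).

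**Figure D3:**
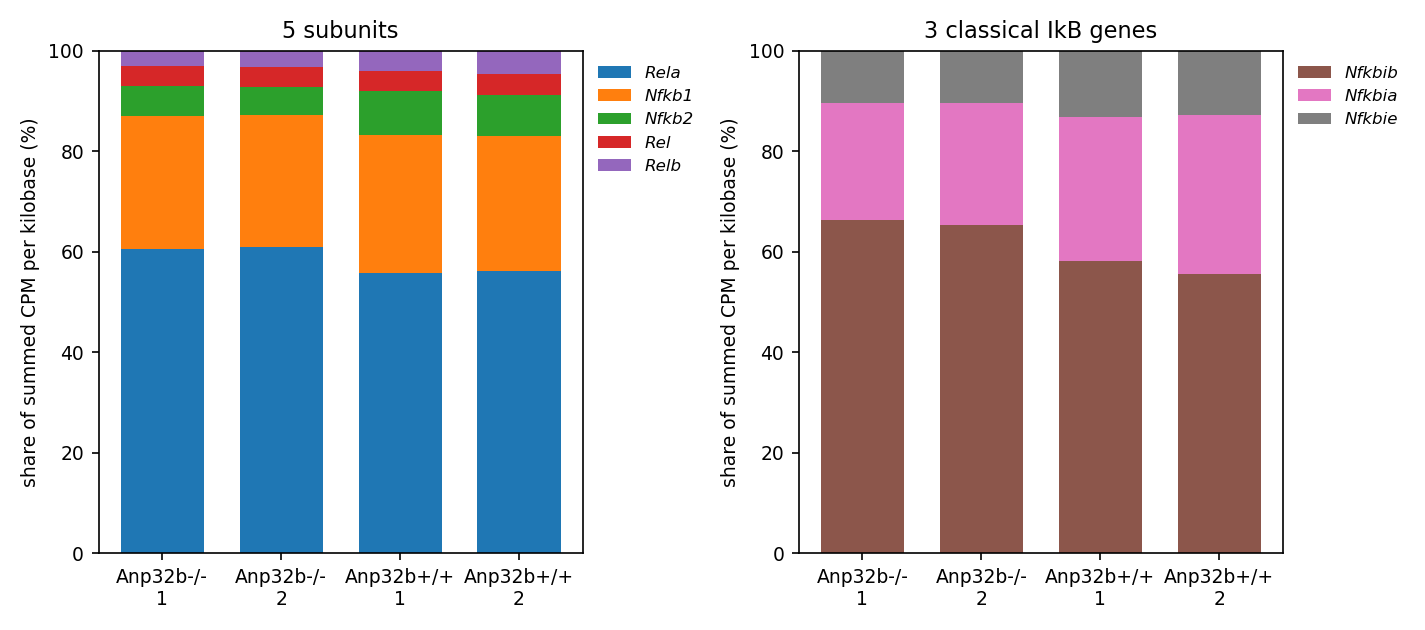
Share of each gene in the summed level per kilobase of the 5 subunits (left) and of the 3 classical IkB genes (right), in percent, 1 bar per library. Rela takes 60.6% and 60.9% of the subunit level in knockout and 55.9% and 56.2% in wild type, and Nfkbia takes 23.3% and 24.2% of the IkB level in knockout and 28.6% and 31.6% in wild type.

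Within the subunit pool, Nfkb2 held 6.07% and 5.56% in the knockout libraries and 8.68% and 8.29% in the wild-type libraries, and Relb held 2.96% and 3.25% in knockout and 3.97% and 4.64% in wild type. The sum of the 5 subunits was 120 and 116 CPM per kilobase in knockout and 121 and 118 in wild type, so the groups overlapped. The ratio of Nfkbia to Rela was 0.289 and 0.316 in knockout and 0.404 and 0.433 in wild type. The summed classical IkB level stood to the summed subunit level at 0.752 and 0.797 in knockout and at 0.789 and 0.77 in wild type, again with overlapping libraries. With 2 libraries against 2, an exact permutation test cannot go below p = 0.333, so these ratios are given as a description.

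The kinases above the family were, with the exception of Map3k8, not called. Of 14 tested genes of the IKK complex and NF-kB kinases, 1 fell and 0 rose, with a median log2 fold change of -0.0050. Of all tested genes, 12.6% were called lower and 10.9% higher, and 1 lower gene of 14 is no more than that share. At an unadjusted edgeR p under 0.05, 2 were lower and 0 higher, and with DESeq2 1 was lower and 0 higher. The IKK genes did not pass: Chuk, for IKK alpha, was at 51.6 and 50.9 CPM in knockout and at 50.0 and 52.9 CPM in wild type, and Ikbkb, for IKK beta, was at 99.7 and 101 CPM in knockout and at 96.2 and 93.2 CPM in wild type. Ikbkg, for the scaffold NEMO, had a log2 fold change of -0.16 (SE 0.08, adjusted p = 0.175). Map3k14, for the kinase NIK, was at 18.1 and 20.4 CPM in knockout and at 19.6 and 18.2 CPM in wild type. These 4 genes were named for their role after their values were seen. Tab2, an adaptor of the TAK1 kinase, was the most abundant gene of the list, at 192 and 184 CPM in knockout and 190 and 184 CPM in wild type. Map3k8, for the kinase TPL2, which the Nfkb1 precursor p105 stabilises, was at 3.85 and 2.74 CPM in knockout and at 7.63 and 6.25 CPM in wild type (log2 fold change -1.07, SE 0.19, edgeR adjusted p = 0.000809). Its call needed knockout replicate 2 (adjusted p = 0.0554 without it, leaving 0 calls in the list) and the filter (0.0564 with none). Without wild-type replicate 2, 2 kinase genes were lower.

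Of 27 tested adaptors and ubiquitin ligases, 5 were higher and 3 lower in knockout, where 10.9% and 12.6% of all tested genes were, and the median log2 fold change was -0.0018. Irak1, a kinase of Toll-like receptor signalling, was at 114 and 110 CPM in knockout and at 88.9 and 88.1 CPM in wild type (log2 fold change 0.34, SE 0.05, edgeR adjusted p = 0.000344). Traf3, the adaptor that keeps NIK low, was at 87.3 and 79.7 CPM in knockout and at 68.6 and 68.4 CPM in wild type (0.29, SE 0.06, adjusted p = 0.00344), which passed no more when knockout replicate 1 (0.125) or the filter (0.062) was left out. Birc3, a ubiquitin ligase that acts with Traf3 and is also an NF-kB target, was at 29.9 and 28.4 CPM in knockout and at 34.8 and 37.0 CPM in wild type (-0.30, SE 0.07, adjusted p = 0.00802). The call of Birc3 was lost without knockout replicate 1 (0.0506), without knockout replicate 2 (0.168), with DESeq2 (0.074) and with no filter (0.0636). Rbck1, a subunit of the linear ubiquitin ligase complex and the most abundant gene here, had 301 and 304 CPM in knockout and 281 and 266 CPM in wild type without a call (adjusted p = 0.0608). Without knockout replicate 1 the list had 2 higher and 0 lower calls, without knockout replicate 2 it had 3 and 0, and without wild-type replicate 2 it had 3 higher. DESeq2 called 3 higher and 1 lower.

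The TNF family ligand genes Ltb, Lta and Tnf fell. Receptor genes moved both ways: Tnfrsf13c and Tnfrsf13b rose, while Tnfrsf11a fell. Of 17 tested ligands and receptors, 7 fell and 4 rose, with a median log2 fold change of -0.48. Of all tested genes, 12.6% were called lower and 10.9% higher. The list was written with earlier results of these data known, so its counts are a description. Ltb, the lymphotoxin beta gene, was at 10.7 and 11.4 CPM in knockout and at 39.4 and 36.5 CPM in wild type (log2 fold change -1.78, SE 0.09, edgeR adjusted p = 3.69e-09). Lta, the lymphotoxin alpha gene, was at 11.4 and 11.8 CPM in knockout and at 34.6 and 31.2 CPM in wild type (-1.50, SE 0.09, adjusted p = 2.39e-08). Tnf, named after its values were seen because it is the third ligand gene of the list that was tested, was at 2.87 and 2.68 CPM in knockout and at 5.77 and 5.64 CPM in wild type (-1.04, SE 0.17, adjusted p = 0.000543). All 3 genes have been described as NF-kB targets. In each, both knockout libraries lay below both wild-type libraries, a pattern of 30.5% of all tested genes. Tnfrsf11a, which encodes the receptor RANK, was at 1.96 and 2.13 CPM in knockout and at 6.70 and 6.63 CPM in wild type (-1.71, SE 0.18, adjusted p = 7.01e-06). Tnfrsf13c, which encodes the BAFF receptor and was the most abundant gene of the list, was at 114 CPM in both knockout libraries and at 78.4 and 75.1 CPM in wild type (0.57, SE 0.05, adjusted p = 2.79e-06). Tnfrsf13b, for the BAFF and APRIL receptor TACI, was likewise named after its values were seen and had 58.0 and 59.9 CPM in knockout and 42.1 and 42.5 CPM in wild type (0.48, SE 0.06, adjusted p = 5.89e-05). The BAFF and APRIL genes themselves, Tnfsf13b and Tnfsf13, were below the filter. Without knockout replicate 2, and also with DESeq2, the list had 4 lower and 3 higher calls.

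**Figure D4:**
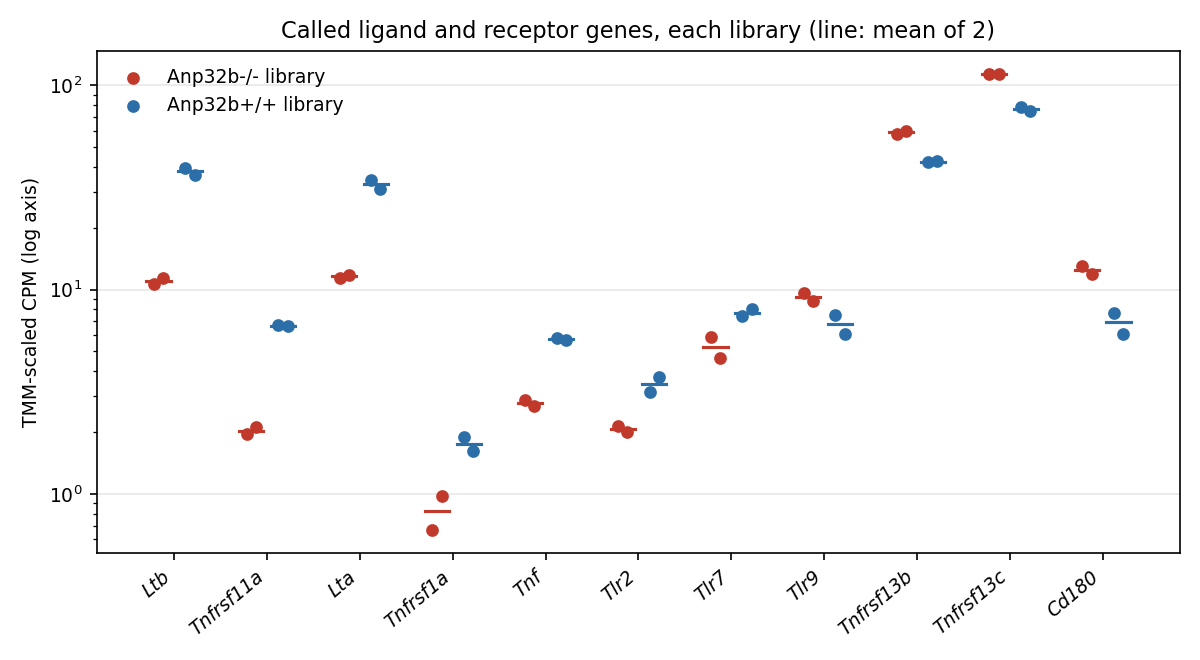
Level of each called ligand and receptor gene in each library, in TMM-scaled CPM on a log axis, with Anp32b-/- libraries in red to the left of Anp32b+/+ libraries in blue and the mean of 2 as a line. The 7 genes that fell stand at the left (Ltb at 10.7 and 11.4 CPM in knockout and at 39.4 and 36.5 CPM in wild type) and the 4 that rose at the right.

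Of 23 tested inhibitors outside the 10 members, 4 fell and 3 rose, counts near the 12.6% lower and 10.9% higher of all tested genes, with a median log2 fold change of -0.04. Nfkbiz, the gene of the inducible nuclear protein IkB zeta, was at 16.6 and 14.9 CPM in knockout and at 26.5 and 26.6 CPM in wild type (log2 fold change -0.75, SE 0.09, edgeR adjusted p = 1.58e-05). Nfkbid, the gene of the nuclear protein IkB NS, was at 63.1 and 58.9 CPM in knockout and at 50.6 and 49.2 CPM in wild type (0.29, SE 0.06, adjusted p = 0.0041). Nfkbiz fell, as Bcl3 did, while Nfkbid, the other atypical IkB gene of the list, was called higher. Irak3, a brake on Toll-like receptor signalling (-0.40, SE 0.10), Cyld, a deubiquitinase (-0.25, SE 0.07), and Tax1bp1, a partner of A20 and the most abundant gene of the list (-0.17, SE 0.05), were called lower. Without knockout replicate 1, and likewise without knockout replicate 2, 1 gene of the list was called lower and 0 higher, and the calls of Nfkbid, Irak3, Cyld and Tax1bp1 were lost. DESeq2 called 1 lower and 1 higher.

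Of 40 tested genes described as NF-kB targets, 15 fell and 5 rose, where 12.6% of all tested genes were called lower and 10.9% higher, with a median log2 fold change of -0.27. The count of targets that rose is near that background. This list, too, was written with earlier results of these data known, so the count that fell is a description. Beside Ltb, the genes of smallest p were Myc, Ccnd2 and Bcl2l1. Myc was at 35.1 and 33.6 CPM in knockout and at 86.7 and 79.2 CPM in wild type (log2 fold change -1.27, SE 0.07, edgeR adjusted p = 8.9e-09). Bcl2l1, for the survival protein BCL-XL, was at 27.6 and 27.5 CPM in knockout and at 62.0 and 60.7 CPM in wild type (-1.16, SE 0.07, adjusted p = 1.57e-08). Ccnd2, for cyclin D2, went the other way, with 449 and 433 CPM in knockout and 227 and 226 CPM in wild type (0.96, SE 0.05, adjusted p = 8.9e-09). Irf4, the most abundant gene of the list, was at 337 and 330 CPM in knockout and at 417 and 402 CPM in wild type (-0.30, SE 0.05, adjusted p = 0.000655), which did not pass once knockout replicate 2 was left out (0.0955). Icam1, an adhesion gene often used as a readout of NF-kB and named after its values were seen, had a log2 fold change of -0.17 (SE 0.07, adjusted p = 0.0817). Of the 51 list genes in the files, 9 also stand in another of these lists. Mmp9 is also on the neutrophil list and Irf4 on the plasma cell list. Without knockout replicate 2, 9 targets were lower and 4 higher, with DESeq2 9 were lower and 5 higher, and without wild-type replicate 2, 14 were lower and 8 higher.

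**Figure D5:**
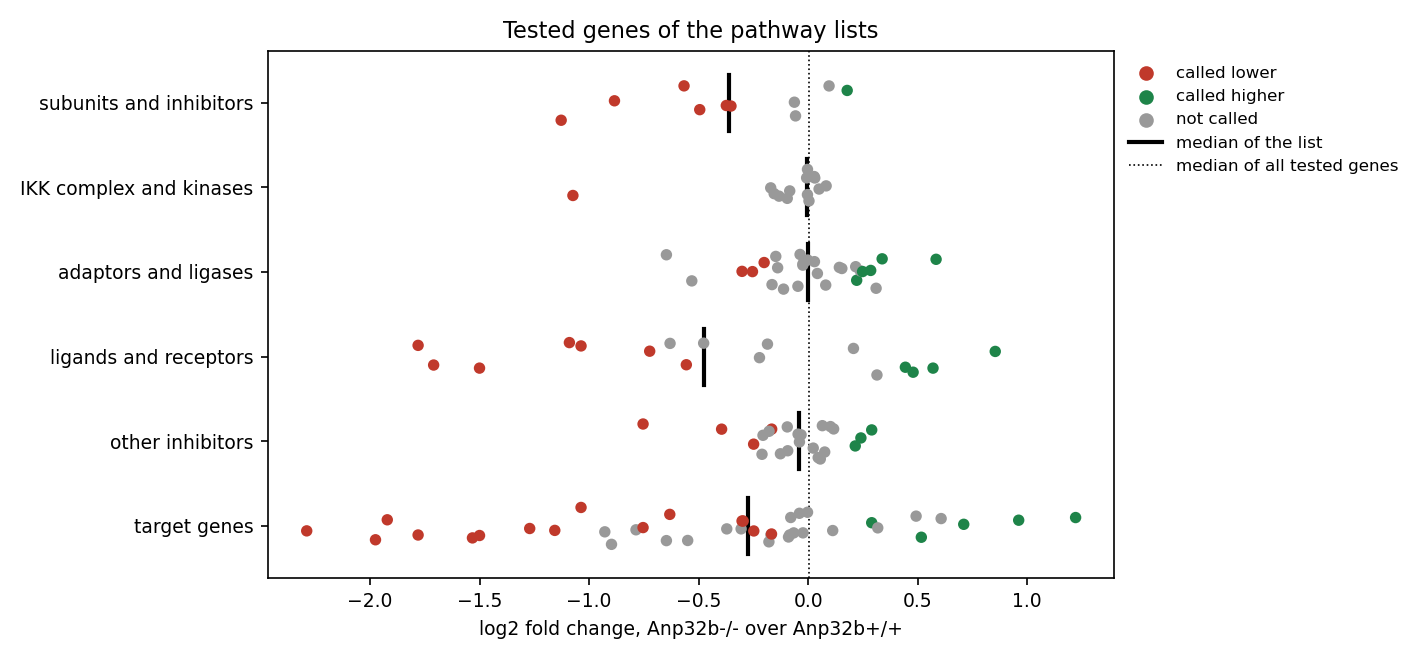
Log2 fold change, knockout over wild type, of each tested gene of the members and of 5 pathway lists, with the median of each list as a bar and that of all tested genes as a dotted line. The medians are -0.36 for the members, -0.0050 for the kinases, -0.0018 for the adaptors, -0.48 for ligands and receptors, -0.04 for the other inhibitors and -0.27 for the target genes.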

How the data were processed

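The deposited files, 1 per library, hold estimated read counts (expected counts, with decimals) per gene symbol, per the file headers and values. The submitters' processing notes name GRCm38 as the build, with HISAT2 2.0.4 and DESeq2 1.4.5 as tools. For the counting tool, annotation, strand setting and filters, nothing is stated (not given in the sources used here), so reads of overlapping genes may be shared out. Values were rounded to whole numbers and tested with edgeR 4.0.16 (R 4.3.3, quasi-likelihood test, TMM, filterByExpr with a minimum count of 10, no covariate, Benjamini-Hochberg adjustment over 12123 genes); 4490 symbols were below the filter. CPM are the unrounded values scaled by library total and TMM factor. The procedure was tested on simulated counts. The members and all gene lists were chosen with earlier results of these data known. The genes named were the members and, in each pathway list, the 4 called genes of smallest p and the most abundant tested gene, beyond those said to be named after their values were seen. The values of 1 gene that this rule names are not reported here. Gene coordinates and transcript lengths are from GENCODE M21 (GRCm38). Alternatives were RLE and upper-quartile normalization, no filter, a filter of 10 CPM in 2 libraries, DESeq2 1.42.0, limma-voom (limma 3.58.1), the replicate number as a block, and leaving out each library, a fit in which the remaining single library takes its spread from the other group. Replicates differed by more than counting noise (chi-square over its degrees of freedom was 2.11 for the knockout pair and 5.51 for the wild-type pair).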

Additional observations from a re-analysis of the deposited data

How the results depend on the processing

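Over 11 alternatives no member changed sign; 94 member values kept their side of the threshold and 15 lost a call, all of Relb, Nfkbie and Nfkbib. Members called lower numbered 4 to 6 and members called higher 0 or 1: 0 were called higher with upper-quartile normalization, with DESeq2, with no filter, with a filter of 10 CPM, without either knockout library and without wild-type replicate 2. Bcl3 could not be tested under the filter of 10 CPM. Over all genes, DESeq2 called 729 higher and 847 lower, no filter gave 547 and 744, and leaving out 1 library gave 372 to 1676 higher and 579 to 1712 lower, against 1323 and 1533. Tab2, not called in any of these, had a negative log2 fold change with upper-quartile normalization (-0.0262) and with the 10 CPM filter (-0.0151), and leaving out 1 library gave -0.0247 to 0.0353, against 0.0038. Over the list genes named by the rule, 24 calls were lost, 2 were gained and 199 results were the same. With the replicate number as a block, 1644 genes were higher and 1779 lower, and 1 and 6 members. The numbers share no stated origin, and their deviations were hardly correlated (r = 0.03 over 12123 genes), so they were not taken as pairs. With the longest coding transcript as length, Rela held 52.4% and 52.8% of the subunit level in knockout and 47.4% and 47.6% in wild type. Depth limits Bcl3 most, with 34 to 92 reads.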
